A study of Rattus norvegicus with 6 samples.

Results

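The regions described here are 12169 stretches of accessible chromatin in rat kidney, all lying in the most crowded megabases of chromosomes 1 to 20. They came from a list of 151302 merged ATAC-seq peaks, of which 148701 are on chromosomes 1 to 20. Each region was assigned by its midpoint to a 1-Mb window counted from the start of its chromosome, and every region in a window holding 150 or more was taken. This gave 74 dense windows out of 2627, or 2.82% of windows with 8.18% of the regions. Adjoining dense windows were treated as 1 domain, which left 69 domains: 65 of 1 window, 3 of 2 windows and 1 of 3 windows. The regions were thus chosen by the measured number per window, and that number is given as a description that supports nothing.

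The kidneys came from Dahl salt-sensitive rats of the SS/Jr strain, an inbred line in which a high-salt diet raises blood pressure and injures the kidney. There were 6 libraries. In 3 of them the rats had been given 1,3-butanediol, a precursor of the ketone body β-hydroxybutyrate, at 20% in water, and the series states 6 weeks of supplementation. The other 3 libraries were from untreated rats of the same strain. Males and females were used in the series, and the labels give neither sex nor age for a library. All libraries were made from whole kidney, so cell types of the nephron, vessels and stroma were sampled together.

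In ATAC-seq a transposase inserts sequencing adapters into DNA left free by nucleosomes, and stretches that collect many insertions are called as peaks. They are usually promoters, enhancers or boundary elements. In mammalian genomes such elements are unevenly distributed: stretches rich in active genes carry many of them, while gene-poor stretches packed as heterochromatin carry few.

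The deposited list gives a chromosome, a start and an end for each region and names no library or group. No region was therefore attributed to butanediol-treated or untreated kidneys, and the groups were not compared here. There is no error between animals for any value below. Sequencing depth per library was likewise unknown. Positions are 1-based in the rn6 build. Genes and sequences at these positions were not analysed here, because the gene table and promoter sequences at hand are of another build. Regions and windows of 1 pooled list are not replicates, so no test was made over them, and differences between sets of regions are given as values.

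The median dense window had 161 regions. Of the 74 windows, 32 held fewer than 160 regions, 10 held 180 or more and 2 held 200 or more. Just inside the threshold, 4 windows held exactly 150 regions and 6 held 151. Just outside it, 2 windows fell short by 1 region and 4 held 148, and 48 windows held at least 140 but under 150. Regions in those 48 windows had a median width of 424.5 bp, and those in windows with at least 150 but under 160 had 413 bp. Regions of 1 kb or more made up 9.49% of the former and 8.64% of the latter. Regions just inside the threshold were thus not the wider ones. The X chromosome is outside the rule, and its most crowded window held 85.

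**Figure D1:**
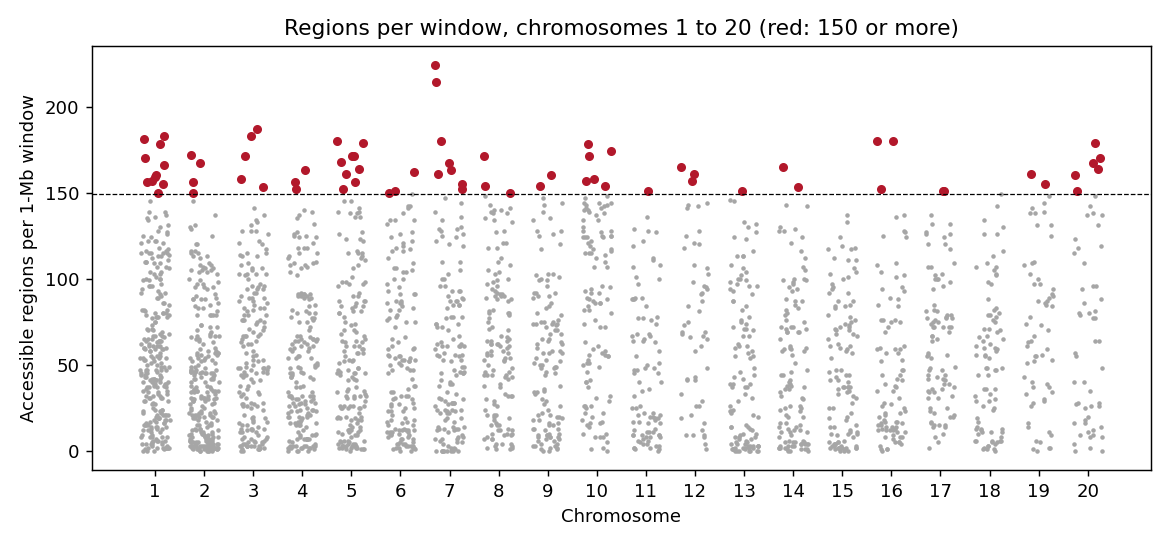
Number of accessible regions in every 1-Mb window of chromosomes 1 to 20 (vertical axis), by chromosome (horizontal axis, points spread sideways for visibility); red points are the 74 windows with 150 or more and the dashed line marks the threshold. Both windows above 200 are on chromosome 7, and chromosomes 15 and 18 have no red point.

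Dense windows were found on 18 of the 20 autosomes. Chromosome 1 had the most, with 11 of its 283 windows, followed by chromosome 5 with 9 and chromosome 7 with 8. Relative to length, chromosome 20 led: 6 of its 57 windows were dense, and these held 24.5% of its regions. The corresponding share was 16.3% on chromosome 7, 15.1% on chromosome 5 and 12.4% on chromosome 12. Chromosome 10 had 6 dense windows with 10.4% of its regions, and its median window, with 88 regions, was the highest of the 20. A high median was thus not needed for dense windows: chromosome 16 had a median of 37 regions per window and 3 dense windows, 2 of them with 180 regions. Chromosome 2, with a median of 35, had 4.

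Chromosomes 15 and 18 held no dense window. The most crowded window of chromosome 18, chr18:31000001-32000000, missed the threshold by 1 region. On chromosome 15 the highest count was 137, at chr15:33000001-34000000. Chromosomes 11 and 13 had 1 dense window each, with 151 regions in both cases. Dense windows lay among the outer 10 windows at either end of a chromosome's span in 15 cases, or 20.3%, where 15.2% of all windows lie.

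The largest domain by number of regions was chr5:150000001-153000000, the domain of 3 windows, with 495 regions covering 9.19% of its bases. Its windows held 171, 168 and 156 regions in order along the chromosome. Regions of 1 kb or more, called wide below, made up 11.7% of its members, and the widest was chr5:152573128-152575506, 2379 bp long. The windows on either side held 75 and 123 regions.

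Chromosome 7 held the most crowded domain, chr7:11000001-13000000, with 438 regions in 2 windows. Regions covered 12.1% of its bases, the highest coverage of the 69 domains, and 11.4% of them were wide. Its widest member, chr7:12422847-12424866, was 2020 bp long. The domain was sharply bounded, with 29 regions in the window before it and 13 in the window after it. Inside it the counts per 100 kb ranged from 12 to 29 in the window beginning at 11000001 and from 13 to 30 in the next, and no gap in either exceeded 22532 bp.

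The other domains of 2 windows were on chromosomes 5 and 20. At chr5:159000001-161000000, 359 regions covered 9.30% of the bases and the widest member was 2215 bp. At chr20:7000001-9000000, 339 regions covered 8.92%, and the widest, chr20:7929595-7931685, measured 2091 bp. In the chromosome 20 domain the windows differed, with 179 regions covering just over 10% in the window beginning at 7000001 and 160 regions covering 7.84% in the window beginning at 8000001. Wide regions made up 11.7% of the former (95% Wilson interval 7.80% to 17.3%) and 7.50% of the latter (4.34% to 12.7%), so the intervals overlap. These and later intervals cover counting error for independent regions only.

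The remaining 65 domains are single windows, given here by chromosome with their region counts and the share of bases covered. On chromosome 1 the most crowded were chr1:266000001-267000000 with 183 regions covering 9.19%, chr1:80000001-81000000 with 181 covering 10.1%, and chr1:141000001-142000000 with 178 covering 8.89%. They were followed by chr1:221000001-222000000 with 170 (9.78%), chr1:226000001-227000000 with 166 (8.66%) and chr1:101000001-102000000 with 160 (9.10%). Fewer than 160 were found at chr1:277000001-278000000 with 159 (7.80%), chr1:219000001-220000000 with 157 (9.04%) and chr1:78000001-79000000 with 156 (8.36%). The last, at chr1:177000001-178000000 and chr1:274000001-275000000, held 155 (7.77%) and 150 (7.28%). Between the windows at 78 and 80 Mb lay a window of 47 regions, and the windows on their outer sides held 43 and 99.

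Chromosome 2 had 4 well-separated dense windows. The most crowded was chr2:225000001-226000000, with 172 regions covering 9.06% and 65 regions in each adjoining window. It held the widest of all 12169 regions. The others were chr2:187000001-188000000 with 167 (8.77%), chr2:94000001-95000000 with 156 (7.62%) and chr2:198000001-199000000 with 150 (8.22%). On chromosome 3, chr3:164000001-165000000 held 187 regions covering 10.2%, the highest count outside chromosome 7, and chr3:162000001-163000000, separated from it by 1 window of 128, held 171 (8.76%). Near the other end of that chromosome lay chr3:11000001-12000000 with 183 (10.04%) and chr3:8000001-9000000 with 153 (8.40%), while chr3:148000001-149000000 held 158 (8.03%).

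Chromosome 4 had dense windows at chr4:100000001-101000000 with 163 regions (8.43% of bases covered), chr4:120000001-121000000 with 156 (7.28%) and chr4:58000001-59000000 with 152 (6.92%). All of them had a steep side, with 34, 40 and 29 regions in the window that followed. Besides its larger domains, chromosome 5 had chr5:167000001-168000000 with 171 (8.85%), chr5:126000001-127000000 with 164 (8.45%), chr5:133000001-134000000 with 161 (7.74%) and chr5:74000001-75000000 with 152 (7.08%). The window before the one at 133 Mb held 2 regions, the sparsest flank of any domain. On chromosome 6 the counts were 162 at chr6:7000001-8000000 (8.12%), 151 at chr6:135000001-136000000 (7.90%) and 150 at chr6:132000001-133000000 (7.59%). The last of these was an island between windows of 25 and 10 regions.

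Chromosome 7 had dense single windows mainly beyond 114 Mb. They were chr7:142000001-143000000 with 180 regions (9.66%), chr7:126000001-127000000 with 167 (8.26%), chr7:123000001-124000000 with 163 (8.64%), chr7:120000001-121000000 with 161 (9.18%) and chr7:114000001-115000000 with 155 (6.91%). The window at 114 Mb had the lowest coverage of the 74, and chr7:75000001-76000000 held 152 regions covering 8.22%. Chromosome 8 had chr8:127000001-128000000 with 171 (7.84%), chr8:117000001-118000000 with 154 (8.10%) and chr8:68000001-69000000 with 150 (7.54%). Chromosome 9 had chr9:17000001-18000000 with 160 (8.69%) and chr9:81000001-82000000 with 154 (8.10%).

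Chromosome 10 contributed 6 single windows. Most regions were found at chr10:109000001-110000000 with 178 (10.3%), chr10:86000001-87000000 with 174 (9.09%) and chr10:106000001-107000000 with 171 (8.92%). Lower counts were found at chr10:75000001-76000000 with 158 (8.06%), chr10:16000001-17000000 with 157 (8.11%) and chr10:89000001-90000000 with 154 (9.12%). The windows at chr11:70000001-71000000 and chr13:50000001-51000000 held 151 regions each, covering 7.36% and 7.98%. On chromosome 12 the counts were 165 at chr12:47000001-48000000 (8.47%), 161 at chr12:23000001-24000000 (8.08%) and 157 at chr12:17000001-18000000 (8.32%), and on chromosome 14 they were 165 at chr14:43000001-44000000 (7.81%) and 153 at chr14:104000001-105000000 (7.96%).

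Chromosome 16 had a pair of windows with 180 regions, chr16:20000001-21000000 covering 10.02% and chr16:83000001-84000000 covering 9.40%, besides chr16:32000001-33000000 with 152 (7.12%). Both dense windows of chromosome 17, chr17:20000001-21000000 and chr17:43000001-44000000, held 151 regions, covering 7.10% and 7.95%. Chromosome 19 had chr19:10000001-11000000 with 161 (8.49%) and chr19:55000001-56000000 with 155 (7.54%). On chromosome 20 the single windows were chr20:20000001-21000000 with 170 (7.87%), chr20:10000001-11000000 with 167 (9.13%), chr20:46000001-47000000 with 164 (8.90%) and chr20:5000001-6000000 with 151 (8.40%). With the domain at 7 to 9 Mb, 4 of the 6 windows from 5 to 11 Mb on chromosome 20 were dense.

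Together the dense windows contained 6.34 Mb of accessible sequence, which was 8.57% of their bases. The other windows were covered to 2.64%. Coverage exceeded 10% in 8 of the 74 and ranged from 6.91% to 12.4%. Because each region adds bases, coverage follows the count in part.

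Most dense windows were peaks within a broader rise in the number of regions. The 138 flanks, the windows directly before and after each of the 69 domains, had 97 regions at the median (quartiles 65 and 124.75). The median over all windows is 49. In 5 pairs of neighbouring domains a single window lay between them, and it was counted as a flank of both. Flanks are below 150 by the rule. At a distance of 2 windows the median was 93, at 3 windows 70, at 4 windows 61.5 and at 5 windows 45. That was the lowest value. From 6 to 10 windows the median lay between 48 and 57.5, on both sides of the median of all windows. Beyond the flanks, windows of other dense domains were counted where they lay at that distance. The highest count was thus 187 at 2 windows and 183 at 3 windows, and 141 at 4 windows. The rule therefore bears on these medians in part. Both flanks held 100 or more regions in 20 of the 69 domains. In 4 domains both flanks held fewer than 50: the 2-window domain of chromosome 7, and the windows at chr1:78000001-79000000, chr6:132000001-133000000 and chr7:114000001-115000000. Domains also lay near each other, with 26 of 69 having another within 5 windows on the same chromosome. Of the 51 pairs of neighbouring domains on a chromosome, 12 were separated by at most 2 windows, although the median separation was 15 windows.

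**Figure D2:**
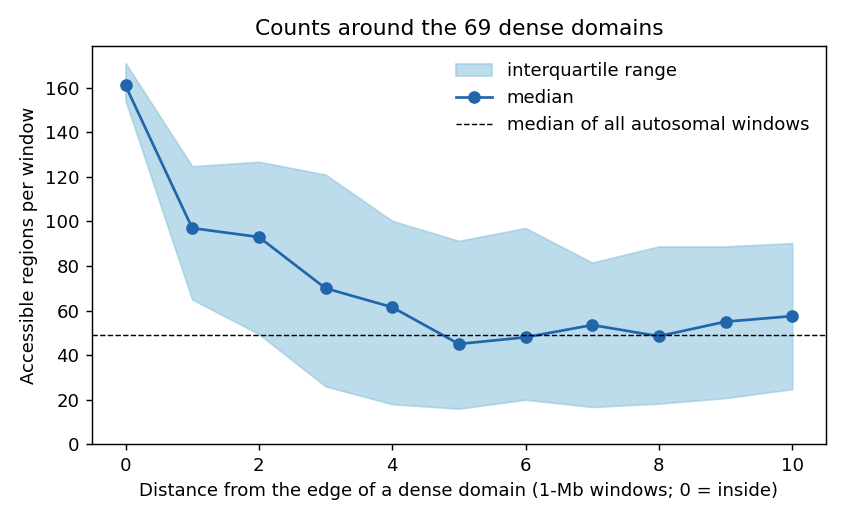
Accessible regions per 1-Mb window (vertical axis) against distance from the edge of a dense domain in windows (horizontal axis; 0 stands for the dense windows themselves), with the median as points and the interquartile range shaded; the dashed line is the median of all autosomal windows. The median passes from 161 inside the domains to 97 beside them, is lowest at the fifth window with 45, and lies between 48 and 57.5 beyond it. Windows of other dense domains are counted where they lie at a given distance.

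Within the dense windows nearly all stretches of 100 kb held regions. Divided into 100-kb bins, the 74 windows gave 740 bins with a median of 17 regions (interquartile range 13 to 20). Fewer than 5 regions were found in 16 bins, or 2.16%, and 3 bins were empty. All 10 bins held at least 5 regions in 59 windows and at least 10 in 24 windows. The highest minimum was found at chr20:7000001-8000000, where the bins ranged from 14 to 24.

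A few dense windows contained long stretches without a listed region. With the window borders counted as ends of a stretch, 4 of the 74 had one over 100 kb. At chr20:5000001-6000000 no region was listed from 5175998 to 5332816, or 156819 bp, so the 151 regions of this window lay in the remainder. At chr1:274000001-275000000 the stretch measured 122114 bp, from 274820731 to 274942844. The other 2 began at the border with the preceding window, with 112901 bp at the start of chr5:133000001-134000000 and 112375 bp at the start of chr6:135000001-136000000. In 4 dense windows the longest stretch was under 25 kb, the shortest being 21677 bp at chr7:11000001-12000000. Between neighbours in the same window, the longest gap had a median of 42888 bp in dense windows and 65930 bp in windows with at least 100 but under 150 regions, called moderately dense below.

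The most crowded 100-kb bins were not all in dense windows. On chromosomes 1 to 20, 22 bins held 30 or more regions, and 12 of these were in dense windows. The highest count, 34, was reached at chr10:11100001-11200000, in a window of 148 regions, and at chr16:6600001-6700000, in a window of 127. Inside the dense windows the maximum was 32, at chr1:266200001-266300000 and at chr9:81300001-81400000, and 31 was reached at chr6:132100001-132200000. A bin with 32 regions, chr3:62500001-62600000, lay in a window with 89 regions in all. These bins were picked after their counts had been seen. Of the 740 bins of the dense windows, 220 had 20 or more regions and 12 had 30 or more.

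**Figure D3:**
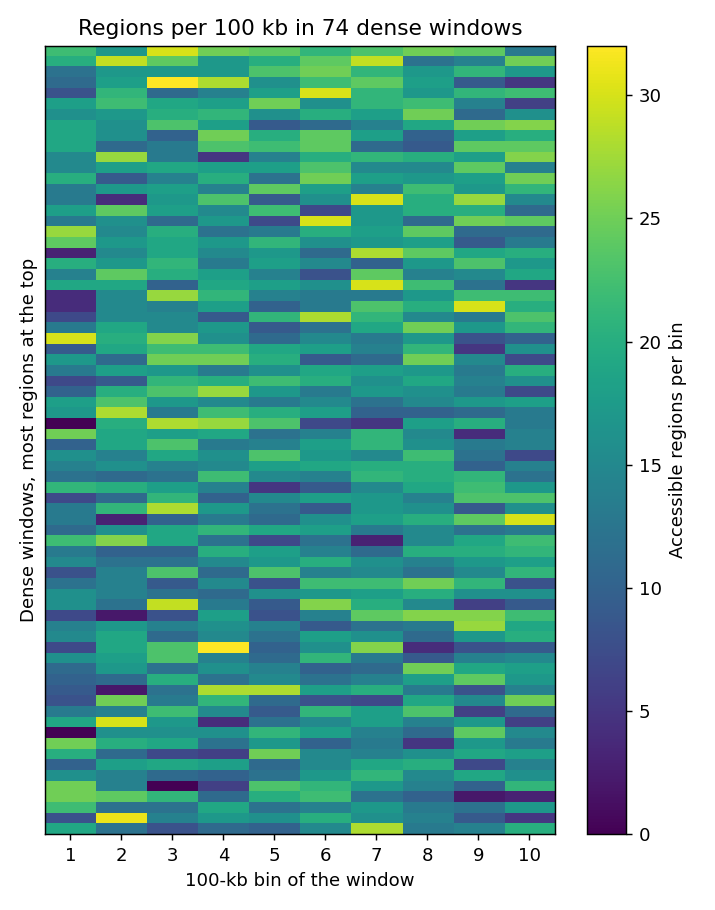
Accessible regions per 100-kb bin (colour) in the 74 dense windows, 1 row per window with the most crowded at the top and the 10 bins of each window from left to right along the chromosome. Counts of 13 to 20 fill the central range of the map, and the 3 empty bins are the darkest cells.

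Regions in dense windows were slightly wider than other autosomal regions. Their median width was 418 bp (interquartile range 297 to 642 bp, n = 12169), against 397 bp (285 to 600 bp, n = 136532), a difference of 21 bp that is small beside the spread among regions. The mean was 521 ± 319 bp (SD over regions) against 494 ± 302 bp. The window median exceeded 397 bp in 58 of the 74 dense windows. Wide regions numbered 1103, or 9.06% (95% Wilson interval 8.57% to 9.59%), against 7.65% (7.51% to 7.79%) of other regions. The wide share was above that of other regions in 44 of the 74 windows. At the narrow end, regions of exactly 200 bp, the smallest width in the list, made up 3.05% of the members and 4.76% of the others.

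This difference in width did not set the dense windows apart from the windows just below them. Median width was 360 bp in windows with fewer than 30 regions, 385 bp from 30 to under 60, 397 bp from 60 to under 90 and 404 bp from 90 to under 120. It was 414 bp from 120 to under 150 regions and 418 bp in the dense windows. Wide regions made up 5.15% of the sparsest class, 8.88% (8.56% to 9.21%) of the class from 120 to under 150 and 9.06% of the dense class, so the last 2 intervals overlap. Regions of exactly 200 bp made up 3.90% and 3.05% of these 2 classes. Within chromosomes, the median width was higher in dense than in other windows on 15 of 18 chromosomes, the exceptions being chromosomes 8, 14 and 17. Against moderately dense windows of the same chromosome it was higher on 11 of 18. The share of wide regions was higher in dense than in other windows on 13 of 18 chromosomes, and higher than in moderately dense windows on 10 of 18.

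**Figure D4:**
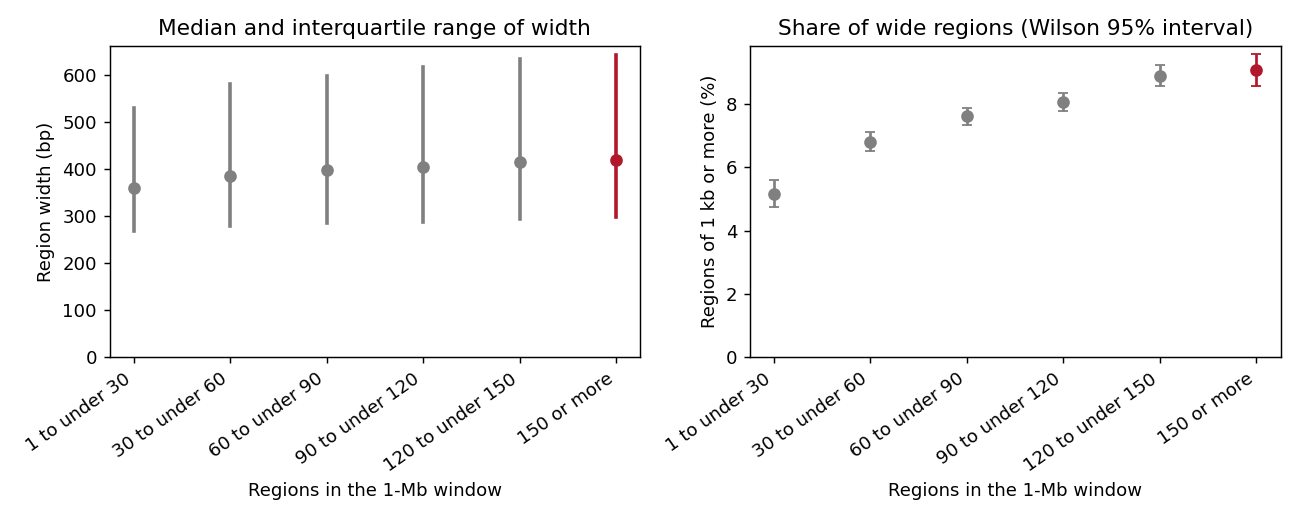
Left, median (points) and interquartile range (lines) of region width in bp, and right, share of regions of 1 kb or more in percent with the 95% Wilson interval, by the number of regions in the 1-Mb window (horizontal axes). Dense windows, in red, have a median of 418 bp and a wide share of 9.06%, next to 414 bp and 8.88% in the class from 120 to under 150.

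Widths also varied among the dense windows, whose medians rest on 150 to 224 regions each. The window medians ranged from 374 bp at chr16:32000001-33000000 to 503 bp at chr10:89000001-90000000, with an SD of 26.3 bp over the 74 windows. The next highest median was 480.5 bp, at chr20:46000001-47000000. The share of wide regions ranged from 4.12% (2.01% to 8.25%) at chr20:20000001-21000000 to 15.9% (11.2% to 22.1%) at chr1:221000001-222000000. At chr1:101000001-102000000 it was 15.6% (10.8% to 22.0%), and at chr10:109000001-110000000 it was 14.0%. The intervals of the lowest and the highest window do not overlap, but they were picked as the extremes of 74. A window with a high median was not always rich in wide regions: chr10:16000001-17000000 had a median of 456 bp and a wide share of 4.46%. Over the 74 windows the number of regions and the median width were weakly related, with a Pearson r of 0.19 and a Spearman rho of 0.22, and without both windows above 200 regions r was 0.15. These windows share 1 pooled list, so the values are a description.

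Very wide regions, of 2 kb or more, numbered 26 in the dense windows, out of 228 on chromosomes 1 to 20 (11.4%). Dense windows held 8.18% of all regions there. The very wide share was 0.21% of members, 0.18% of regions in windows from 120 to under 150 and 0.15% of all other autosomal regions. The 26 were scattered over 22 windows, and 4 windows held 2 each. The widest member ranked 19th by width on chromosomes 1 to 20. That member was chr2:225674115-225676659, 2545 bp long, with its nearest neighbour 7922 bp away. Next were chr4:100293058-100295554 with 2497 bp, chr5:167751485-167753977 with 2493 bp and chr5:152573128-152575506 with 2379 bp. The region at chr20:46426189-46428562, 2374 bp long, had a neighbour 105 bp away. The window at chr7:75000001-76000000 held 2 of the 10 widest, chr7:75596062-75598386 with 2325 bp and chr7:75420970-75423173 with 2204 bp. The list of 10 was completed by chr5:160093989-160096203 with 2215 bp, chr12:23150135-23152342 with 2208 bp and chr14:104974720-104976899 with 2180 bp. Nearest neighbours of these 10 were between 105 and 10521 bp away. Only those on chromosomes 20 and 12 had a neighbour within 1 kb, at 105 and 126 bp. Of all members, 40.6% had a neighbour that close.

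Spacing was necessarily shorter in dense windows, since more regions share the same length. The median gap between neighbours in the same window, edge to edge, was 3759 bp (interquartile range 1158 to 7358.5 bp), against 4693 bp in moderately dense windows and 5681 bp in all other windows. Medians of individual dense windows ranged from 2740 bp at chr7:12000001-13000000 to 4935 bp at chr2:198000001-199000000. The window at chr20:10000001-11000000 had a median gap of 2750 bp with 167 regions, close to that of the chromosome 7 window with 224. Its regions were grouped more tightly, with a longest gap of 62956 bp against 22532 bp.

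How even the spacing was can be expressed free of its scale, as the SD of the gaps in a window over their mean. This coefficient had a median of 1.14 over the dense windows (interquartile range 1.05 to 1.25), 1.26 over windows from 120 to under 150 regions (1.13 to 1.47), 1.43 from 90 to under 120, 1.58 from 60 to under 90 and 1.62 from 30 to under 60. In windows under 30 regions it was 1.32, so the coefficient did not follow crowding over the whole range. Regions in dense windows were thus spaced more evenly at the median than in each less crowded class, but a window with a long empty stretch has less room for 150 regions, so the rule bears on this measure. The lowest coefficient was 0.913, at chr5:160000001-161000000, and the highest was 2.25, at chr20:5000001-6000000, where the gap of 156819 bp lies. Gaps shorter than 0.25 times the window mean made up 27.8% in dense windows and 28.0% in windows from 120 to under 150 regions.

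Close groups were common among the members. Another region lay within 1 kb of 40.6% of them, against 35.2% in moderately dense windows and 31.4% in all other autosomal regions. Runs, in which neighbours are under 500 bp apart, took in 3272 members, or 26.9%, against 23.9% in moderately dense windows and 21.4% of all other autosomal regions. Runs of 4 or more numbered 29 among 12169 members, and the longest had 5 regions. The other windows held 214 such runs among 136532 regions and reached 6 regions. Both runs of 5 were on chromosome 1, at chr1:226654864-226658043 and chr1:266559180-266562291, and spanned 3180 and 3112 bp. Chromosome 1, with 1815 of the 12169 members, held 8 of the 29 runs, and chromosome 7, with 1416, held 4. Shorter gaps raise these shares, so the rule bears on them.

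Wide members lay farther from their neighbours than narrower members did, also in the crowded windows. The nearest region was 3097 bp away at the median for wide members and 1398 bp away for narrower ones, 2.22 times as far. The ratio was likewise 2.22 in windows from 120 to under 150 regions, and from there it fell with each less crowded class. It was 2.10 from 90 to under 120 regions, 1.73 from 30 to under 60 and 1.04 under 30, where 550 regions were wide. As a ratio, the greater distance around wide regions thus varied with crowding and was nearly absent in the sparsest class. In bp, however, the extra distance was smaller in dense windows than in each class from 30 to under 150 regions. From 30 to under 60 regions, for example, the medians were 5497 bp (wide) and 3169 bp (narrower). Under 30 regions they were 8023.5 and 7708.5 bp, the only class with a smaller extra distance than dense windows. Gaps beside a wide region were common in 2 length ranges. Of 2090 such gaps in the dense windows, 372 were shorter than 1 kb. The class from 2 to 3 kb had 117 gaps and that from 3 to 4 kb had 122, after which 207 gaps fell between 4 and 5 kb and 203 between 5 and 6 kb. The next classes of 1 kb had 153 and 133.

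The second range lay at a similar distance in windows of different crowding. Its highest class was 4 to 5 kb in dense windows (9.90% of gaps), and 5 to 6 kb both in moderately dense windows (8.98%) and in windows under 100 regions (7.26%). The median of these gaps was 5427, 6242 and 8069 bp in the same order. In dense windows 219 gaps of at least 4500 but under 5500 bp were found, 1.43 times the 153 gaps of the 1 kb below. This ratio was 1.60 in moderately dense windows and 1.78 in windows under 100 regions. Between regions both under 400 bp wide the dense windows showed no such rise, since the same classes held 180 and, below it, 194 gaps. The bounds of these classes follow earlier results on the whole list, in which this rise was first seen.

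**Figure D5:**
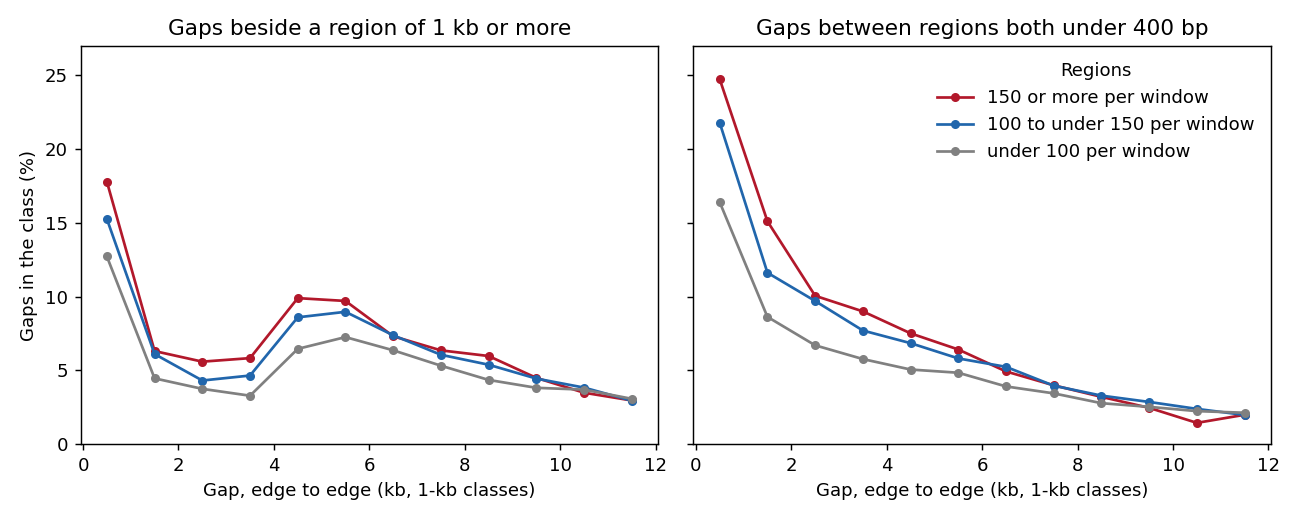
Share of gaps in percent (vertical axes) by gap length in 1-kb classes (horizontal axes, in kb) for gaps beside a region of 1 kb or more (left) and between regions both under 400 bp (right), in dense windows (red), windows from 100 to under 150 regions (blue) and windows under 100 (grey). On the left all 3 lines dip at 2 to 4 kb and rise at 4 to 6 kb, to 9.90% in dense windows, and on the right they decline over the same lengths.

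Which regions count as lying in a dense window depended on where the windows were drawn. With windows counted from position 500000, 70 windows with 11339 regions reached 150, but 39.0% of the members given above were among them. In 500-kb windows with 75 or more regions, which demand the same density over a shorter stretch, 74.8% of the members were found again, and they were 39.3% of the regions so chosen. In 2-Mb windows with 300 or more, 6 windows remained, with 9.92% of the members. Under the shift by 500 kb the median width was 422 bp against 397 bp elsewhere, so the description of width moved little although most of the regions were different ones.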

How the data were processed

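Kidney nuclei (50000 per library, from 100 mg of powdered frozen tissue) underwent Omni-ATAC tagmentation and were sequenced in paired reads of 150 bases, per the labels' protocols. FastQC, Trim Galore, cutadapt and the rn6 build are named in the submitters' processing notes. Not given in the sources used here are the aligner, peak caller, thresholds, merging rule and any correction for the transposase offset. A list of merged regions without header was deposited by the authors, whose only measurements are start and end positions in bp. They were read as BED positions with starts counted from 0. The list was sorted and held 0 overlapping neighbours. It carries no value per library, so no fit, p-value or group comparison was made.

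Windows of 1 Mb ran from the first to the last that holds a region on each chromosome. Gaps were measured edge to edge between neighbours assigned to the same window. Wide regions were those of 1 kb or more. Named regions were taken from the 10 widest members and the widest of each domain of more than 1 window. Every domain was named. Domains of more than 1 window were given first by number of regions, and single windows followed by chromosome, mostly by number of regions within it. Other positions (100-kb bins, gaps, runs) were chosen after their values were seen. The members and measures were chosen with earlier results of these data known. Computations used Python 3.11.15, numpy 2.4.6, pandas 2.3.3, scipy 1.17.1 and matplotlib 3.10.9. The code was run on a simulated list of 104400 regions with 40 planted dense windows. It returned 40 of them, and a planted width difference of 20 bp was measured as 22 bp. The planted windows were set above the threshold and all others well below it, so this outcome was fixed in advance. It checks the code and says nothing about the windows described here.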

Additional observations from a re-analysis of the deposited data

How the results depend on the processing

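The number of regions in dense windows, 12169 in the list as deposited, was 345 (2 windows, both on chromosome 7) when only regions of at least 300 bp were counted, and 2670 (17 windows) when regions under 500 bp apart were joined. It was 35500 with a threshold lower by 25, 2606 with a threshold higher by 25, 23140 in 500-kb windows with 75 or more and 1897 in 2-Mb windows with 300 or more. The first 2 settings leave fewer regions to reach a fixed threshold. When the 74 windows with the most regions were taken instead, an alternative added after seeing the data, 62 of the 74 dense windows were among them at 300 bp and 68 after joining. In none of these settings did the sign of a difference change. The windows with at least 140 but under 150 regions were not used as a setting, and against them both differences were reversed. Median width was 418 bp in dense windows against 424.5 bp there, and the wide share was 9.06% against 9.49%. The difference in median width between dense windows and the rest, 21 bp, was 32 bp at 300 bp, 67.5 bp after joining, 34 bp with the higher threshold, and 9 bp against windows with at least 100 but under 150 regions. The difference in the share of wide regions, 1.42 percentage points, was 3.66, 4.93, 3.07 and 0.58 under the same settings. The median gap of 3759 bp was 4029 bp at 300 bp, 4330 bp after joining, 3412 bp with the higher and 4204 bp with the lower threshold, and 3913 bp with windows counted from position 500000. Coverage of 8.57% was 10.96% at 300 bp, 10.5% after joining, 10.05% with the higher threshold and 7.48% with the lower. Joining lengthens regions by construction. The cause of the other shifts was not tested. Without regions of exactly 200 bp, 57 windows with 9325 regions reached the threshold, and with assignment by start position 73 windows with 12019. No paired analysis was possible because libraries are not distinguished in the list, and for the same reason no replicate could be left out. Since depth is unknown, regions missing from the list may be closed or below the caller's threshold. Other reasons are possible, as sequence was not analysed here, and why a stretch lacks regions was not tested.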
